A study of Mus musculus with 9 samples.

Results

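Bulk RNA-Seq of mouse liver was examined for 9 genes that belong to the fetal liver program or hold it down in the adult. They were 7 genes that are high in fetal liver and low in adult liver (*Afp*, *H19*, *Gpc3*, *Igf2*, *Igf2bp2*, *Igf2bp3* and *Mdk*) and 2 repressors (*Zhx2* and *Zbtb20*). The genes were chosen by name, each with 1 row among the 43346 genes of the deposited table. A filter on low counts left 15024 genes to be tested, 8 of these 9 among them, and *Igf2bp3* did not pass it. Liver came from WT mice of strain C57/BL6 aged 12 weeks, with no engineered allele, and all 9 libraries were from livers that underwent 70% partial hepatectomy. The baseline group was the piece of liver resected at surgery (0 hours) from vehicle-treated mice. The other groups were the liver remnants 40 hours after hepatectomy of mice given vehicle or NSC-87877 (NSC), an inhibitor of the phosphatase SHP2 that also inhibits SHP1, at 7.5 mg/kg per dose and 15 mg/kg/day. Each group held 3 livers. Resected tissue of NSC-treated mice was not analysed here, so both 40-hour groups were compared with the same 3 baseline livers. A baseline liver was resected normal tissue and a 40-hour liver was a regenerating remnant, so surgery, time and the part of the liver sampled cannot be told apart. The labels do not say whether libraries with the same number came from 1 mouse.

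Alpha-fetoprotein is the main plasma protein of the fetus and is made by fetal hepatocytes and yolk sac. Its gene, *Afp*, lies next to *Alb*, the albumin gene, and is shut down after birth while *Alb* stays on. *Zhx2*, a zinc finger and homeobox factor, and *Zbtb20*, a BTB and zinc finger factor, are known repressors of *Afp* in adult mouse liver, and *Zhx2* is also known to hold down *H19* and *Gpc3*. *H19* and *Igf2* are neighbouring imprinted genes, read from the maternal and the paternal chromosome respectively. *Igf2* encodes a fetal growth factor, *H19* encodes a long noncoding RNA, and *Igf2bp2* and *Igf2bp3* encode RNA-binding proteins that bind *Igf2* mRNA among others. *Gpc3* encodes glypican 3, a proteoglycan of the cell surface, and *Mdk* encodes midkine, a heparin-binding growth factor.

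In the deposited coordinates, which match the mouse build GRCm38, *Afp* (ENSMUSG00000054932) spans chr5:90490714-90508907 and starts 14110 bases beyond the end of *Alb*, on the same strand. *H19* (ENSMUSG00000000031) spans chr7:142575529-142578143 and is separated by 72622 bases from *Igf2* (ENSMUSG00000048583), at chr7:142650766-142666816. *Gpc3* lies on chromosome X, *Igf2bp2* and *Zbtb20* on chromosome 16, *Igf2bp3* on chromosome 6, *Mdk* on chromosome 2 and *Zhx2* on chromosome 15. The promoters of *Afp* and *Alb* are shown because the genes are linked members of 1 family, of which *Afp* was called in the comparisons with baseline and *Alb* was not. Both sequences are from RefSeq (GRCm38.p6), plus strand, and cover the 250 bases before the annotated start, which are chr5:90490464-90490713 for *Afp* and chr5:90460620-90460869 for *Alb*. Capitals mark matches to 2 motifs, searched on both strands. They are the CCAAT box and the TATA motif, the latter searched as TATAAA.
Afp promoter: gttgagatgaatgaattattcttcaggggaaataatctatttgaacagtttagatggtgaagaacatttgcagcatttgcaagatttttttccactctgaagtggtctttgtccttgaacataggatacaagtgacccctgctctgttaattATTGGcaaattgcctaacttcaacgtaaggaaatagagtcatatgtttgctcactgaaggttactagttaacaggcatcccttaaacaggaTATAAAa
Alb promoter: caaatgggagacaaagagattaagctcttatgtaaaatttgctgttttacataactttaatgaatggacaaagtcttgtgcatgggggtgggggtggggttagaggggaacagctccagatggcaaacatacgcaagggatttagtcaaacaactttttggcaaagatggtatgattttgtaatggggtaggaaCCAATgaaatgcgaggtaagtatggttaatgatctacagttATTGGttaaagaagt

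Both promoters held a CCAAT box. In *Afp* 1 match lay on the other strand at -98 to -94, counted from the annotated start, and in *Alb* 1 match lay on the strand of the gene at -56 to -52 and 1 on the other strand at -15 to -11. The TATA motif of *Afp* lay at -7 to -2, and no match overlapped another. Of 32851 promoter windows of the same length in the table, 33.8% held a CCAAT box and 12.4% the TATA motif, which *Afp* held and *Alb* did not. Windows were found for *Gpc3*, *Igf2* (4 windows), *Igf2bp2*, *Igf2bp3* and *Zbtb20* as well, and none of these held the TATA motif. A CCAAT box lay in the windows of *Gpc3* and *Igf2bp3* and in 1 of the 4 windows of *Igf2*. The windows of *Igf2bp2* and *Zbtb20* held none. A TATA motif of other letters, or one beyond the annotated start, was not searched for. Its absence in *Alb* therefore holds only for these letters and this window. These matches describe letters in a window and do not show binding.

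**Figure D1:**
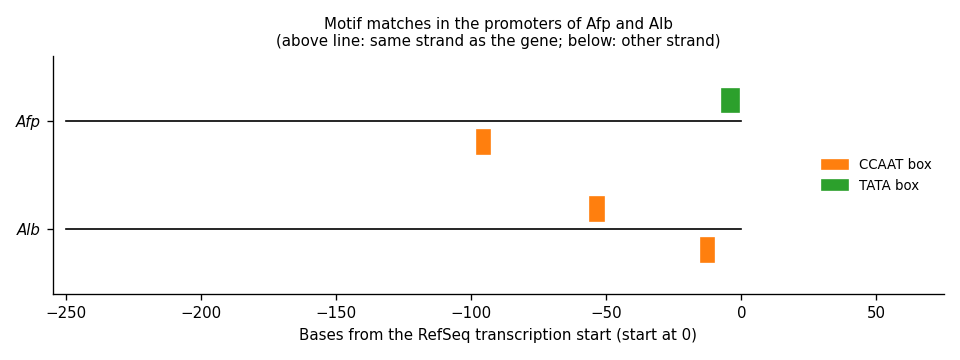
Position of motif matches in the 250 bases before the annotated start of *Afp* and *Alb*, with the distance from the start in bases on the horizontal axis. Boxes above a line are on the strand of the gene and boxes below on the other strand. A CCAAT box lies at -98 to -94 in *Afp*, and 2 lie in *Alb*, the first at -56 to -52.

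Both imprinted genes carry a microRNA hairpin in their annotated span. The mature sequences are shown, with the seed (bases 2 to 8) in capitals, because reads of these hairpins and of their host transcripts can fall on the same bases.
mmu-miR-675-5p: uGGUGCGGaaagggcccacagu
mmu-miR-675-3p: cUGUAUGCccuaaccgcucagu
mmu-miR-483-5p: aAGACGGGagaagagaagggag
mmu-miR-483-3p: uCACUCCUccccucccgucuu

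The 4 seeds differ from each other. *Mir675*, inside *H19*, held 15 reads over the 9 libraries beside 177 for *H19*, and *Mir483*, inside *Igf2*, held 0 reads beside 249 for *Igf2*. These poly(A)-selected libraries do not measure mature microRNAs. The antisense gene *Igf2os* over *Igf2* held 11 reads. Whether the counting used strand is not given in the sources used here, so reads from a gene and an antisense partner may not have been told apart.

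Libraries held 23997363 to 42887589 reads assigned to genes. Values by library are given as CPM, counts scaled to library totals that were adjusted by TMM factors, and a fold change is on the log2 scale with its standard error (SE) from edgeR's quasi-likelihood fit. A gene was called where its Benjamini-Hochberg adjusted p, over all 15024 genes, was under 0.05. A count of 3, used as the floor, corresponded to 0.0751 to 0.117 CPM. The 12 hepatocyte markers summed to 135692 to 147115 CPM at baseline, 106369 to 143684 with vehicle and 108475 to 132203 with NSC. All NSC sums thus lay below the baseline sums. Most of the sum was *Alb*, with a mean of 92303 CPM at baseline. The median log2 fold change of the 12 genes was -0.67 with vehicle and -0.88 with NSC. *Mki67*, a proliferation marker, was 0.891 to 1.37 CPM at baseline, 87.5 to 121 in the vehicle group and 61.2 to 239 in the NSC group. In whole liver, fewer cells of a type and less RNA per cell cannot be told apart.

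Levels of different genes were compared per length, with the deposited FPKM values, which are counts scaled to gene length and library total. At baseline the 2 repressors stood above the fetal genes, with *Zhx2* at 3.90 ± 0.56 FPKM (SD, n = 3) and *Zbtb20* at 3.05 ± 0.39 FPKM, and their ranges overlapped. The listed lengths are 4434 bases for *Zhx2* and 30730 for *Zbtb20*, and the baseline means in CPM were 17.9 and 97.0. The order of these 2 genes in FPKM therefore depends on the length used. *Mdk*, *Afp*, *Gpc3*, *H19*, *Igf2bp2* and *Igf2* followed with mean levels from 0.406 down to 0.0580 FPKM, each overlapping the next in this order. *Igf2bp3* came last at 0.00452 FPKM. *Alb* stood at 43600 ± 1853 FPKM at baseline. At 40 hours the order of the leading genes was *Zbtb20*, *Zhx2* and *Afp* in both groups. *Afp* then ranged from 1.78 to 3.62 FPKM with vehicle and from 1.73 to 2.98 FPKM with NSC, and its range overlapped that of *Zhx2* in both. The deposited FPKM are not scaled by TMM.

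**Figure D2:**
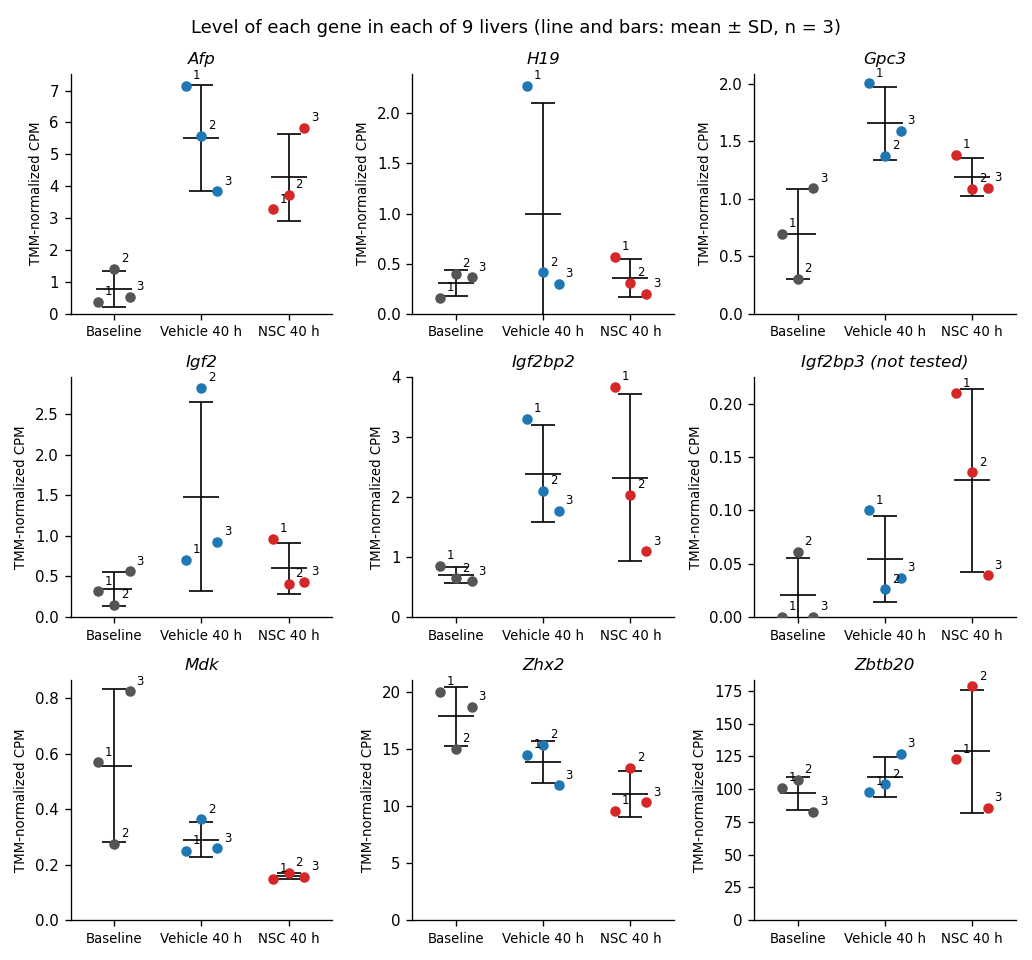
Level of the 9 genes in each liver, in TMM-normalized CPM on a linear axis that starts at 0, with points numbered by replicate and lines for the mean ± SD of 3 livers (bars are cut at 0). All 6 livers at 40 hours lie above the 3 baseline livers for *Afp* and *Igf2bp2*, while 1 vehicle liver stands high for *H19* and another for *Igf2*.

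*Afp* rose after hepatectomy in both treatment groups with the smallest adjusted p of the 8 tested genes in each comparison with baseline. It was 0.379, 1.40 and 0.528 CPM in the baseline livers, 7.16, 5.57 and 3.84 in the vehicle livers and 3.27, 3.74 and 5.83 in the NSC livers. Every 40-hour liver lay above every baseline liver, and the 40-hour groups overlapped. Its log2 fold change from baseline was 2.83 (SE 0.45, adjusted p = 0.00137), or 7.12-fold, with vehicle and 2.46 (SE 0.45, adjusted p = 0.00197), or 5.49-fold, with NSC. Between NSC and vehicle the difference was -0.38 (95% interval -1.26 to 0.51, adjusted p = 0.633). The call against baseline was kept in both groups under each of 17 alternatives. Without baseline replicate 2, the highest baseline liver, the log2 fold change was 3.60 with vehicle and 3.23 with NSC. The rise started from 74 reads over the 3 baseline livers, and the 40-hour level stayed low beside *Alb*. As a share of the *Alb* level in ppm, on the FPKM scale, *Afp* was 3.87, 15.6 and 5.55 at baseline, 93.3, 52.7 and 40.0 with vehicle and 39.3, 43.1 and 61.6 with NSC.

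*Alb* itself and its other relatives did not pass the test. The log2 fold change of *Alb* was -0.02 (95% interval -0.46 to 0.42) with vehicle and -0.10 (-0.54 to 0.34) with NSC. Of the 4 genes of the albumin family, *Afp* alone was called. *Afm*, which encodes afamin, had a log2 fold change of 0.12 (SE 0.19) with vehicle and 0.18 (SE 0.19) with NSC, and *Gc*, which encodes the vitamin D-binding protein, of -0.12 (SE 0.18) and -0.03 (SE 0.18), none of them called.

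*Igf2bp2* was the other fetal gene that rose in both groups. Its level was 0.853, 0.641 and 0.594 CPM at baseline, 3.30, 2.10 and 1.77 with vehicle and 3.84, 2.04 and 1.10 with NSC. No 40-hour liver overlapped the baseline livers, while the NSC livers spread more widely than the vehicle livers. Its log2 fold change was 1.78 (SE 0.45, adjusted p = 0.0131) with vehicle and 1.74 (SE 0.45, adjusted p = 0.0103) with NSC, and -0.04 (95% interval -0.93 to 0.86) between NSC and vehicle. The vehicle call was lost without baseline replicate 3 (adjusted p = 0.0541) or without vehicle replicate 1 (adjusted p = 0.0582). The NSC call was kept under each of 17 alternatives.

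*Igf2bp3*, its relative, was too scarce to be tested. It had 0, 2 and 0 reads at baseline, 4, 1 and 1 with vehicle and 7, 4 and 1 with NSC. The pooled ratio of NSC to baseline, from 12 and 2 reads, was 6.43 (95% exact interval 1.43 to 59.2, counting error only). With the filter removed, its adjusted p for NSC against baseline was 0.20 (unadjusted 0.0654). Its gene end also overlaps *Malsu1*, which held 2685 reads.

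*Igf2* rose with vehicle and did not pass the test with NSC. It was 0.316, 0.153 and 0.561 CPM at baseline, 0.701, 2.82 and 0.923 with vehicle and 0.960, 0.407 and 0.430 with NSC. The vehicle livers all lay above baseline, with vehicle replicate 2 far above the rest, while 2 of the 3 NSC livers lay within the baseline range. Against baseline the log2 fold change was 2.12 (SE 0.64, adjusted p = 0.0315) with vehicle and 0.82 (SE 0.66, adjusted p = 0.360) with NSC. The direct difference between NSC and vehicle was -1.29 (95% interval -2.61 to 0.02, adjusted p = 0.264), so the groups at 40 hours were not shown to differ. Without vehicle replicate 2 that difference was -0.41 (adjusted p = 0.812) and the vehicle value against baseline 1.24 (adjusted p = 0.175). The vehicle call was also lost without baseline replicate 1 (adjusted p = 0.0974) or 2 (adjusted p = 0.0935).

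*H19*, the partner of *Igf2* in the imprinted pair, was not called in any comparison. Its level was 0.158, 0.397 and 0.363 CPM at baseline, 2.28, 0.415 and 0.295 with vehicle and 0.570, 0.306 and 0.196 with NSC. One vehicle liver, replicate 1, stood well above the 8 others, and the groups overlapped otherwise. That liver was not the one high for *Igf2*. The log2 fold change was 1.72 (SE 0.75, adjusted p = 0.120) with vehicle and 0.25 (SE 0.81, adjusted p = 0.837) with NSC. Without vehicle replicate 1 the vehicle value was 0.23 (adjusted p = 0.845).

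*Gpc3* rose modestly with vehicle. It measured 0.695, 0.305 and 1.09 CPM at baseline, 2.00, 1.37 and 1.59 with vehicle and 1.38, 1.09 and 1.10 with NSC. The vehicle livers lay above baseline without overlap, whereas the lowest NSC liver lay just under the highest baseline liver. The log2 fold change was 1.25 (SE 0.41, adjusted p = 0.0444) with vehicle, 0.78 (SE 0.42, adjusted p = 0.169) with NSC and -0.48 (95% interval -1.34 to 0.39) between them. The vehicle call stood close to the threshold and was lost without any of 6 libraries (adjusted p from 0.0554 to 0.146), namely baseline replicate 1 or 2, any vehicle replicate or NSC replicate 2.

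*Mdk* was the fetal gene that went the other way. It was 0.569, 0.275 and 0.825 CPM at baseline, 0.250, 0.363 and 0.258 with vehicle and 0.150, 0.170 and 0.157 with NSC. Every NSC liver was below every baseline and every vehicle liver, on 4 or 5 reads each. *Mdk* passed the filter through baseline replicates 1 and 3 (18 and 25 reads) and vehicle replicate 2 (14 reads). No NSC liver reached the filter level, so the fall with NSC is not independent of the filter. The log2 fold change was -0.92 (SE 0.48, adjusted p = 0.190) with vehicle and -1.78 (SE 0.53, adjusted p = 0.0218) with NSC, and -0.86 (95% interval -2.07 to 0.34, adjusted p = 0.403) between NSC and vehicle. The NSC call was lost without baseline replicate 1 (adjusted p = 0.0561) or 3 (adjusted p = 0.118), without NSC replicate 1 (adjusted p = 0.0533) or 2 (adjusted p = 0.0589), and after a correction for GC content (-1.41, adjusted p = 0.0566).

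Of the repressors, *Zhx2* fell with NSC. Its level was 20.0, 15.0 and 18.7 CPM at baseline, 14.5, 15.4 and 11.8 with vehicle and 9.60, 13.4 and 10.3 with NSC. All NSC livers lay below baseline, and the vehicle livers overlapped both other groups. Against baseline the log2 fold change was -0.36 (SE 0.18, adjusted p = 0.166) with vehicle and -0.69 (SE 0.18, adjusted p = 0.0120), or 0.620-fold, with NSC, and -0.33 (95% interval -0.72 to 0.07, adjusted p = 0.335) between NSC and vehicle. The NSC call was lost without baseline replicate 1 (adjusted p = 0.0511).

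*Zbtb20*, the other repressor, was not called in any of the 3 comparisons. It measured 101, 107 and 82.8 CPM at baseline, 97.9, 104 and 127 with vehicle and 123, 179 and 85.5 with NSC, with overlap between all groups. Its log2 fold change was 0.17 (SE 0.23) with vehicle and 0.41 (SE 0.23, adjusted p = 0.191) with NSC. Without NSC replicate 3 the NSC value was 0.64 (adjusted p = 0.0291), and after correction for GC content it was -0.03, so neither the call nor the sign was stable. Its exons total 30730 bases in the deposited table, and a processed pseudogene within its span, *BC002163*, held 1498 reads beside its own 32093.

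**Figure D3:**
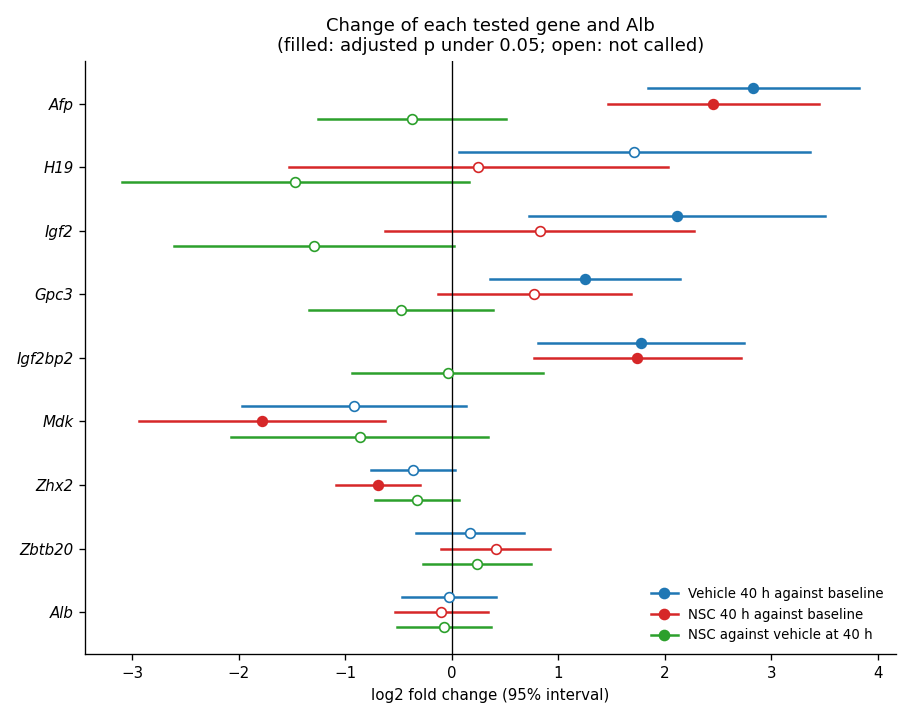
Log2 fold change of the 8 tested genes and *Alb* in the 3 comparisons, with 95% intervals from the edgeR fit; filled points passed an adjusted p of 0.05 and open points did not. *Afp* and *Igf2bp2* are filled on the right for both groups, *Mdk* and *Zhx2* are filled on the left for NSC, and every interval of NSC against vehicle crosses 0.

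Over the set, 4 of the 8 tested genes rose with vehicle and 0 fell, where 12.7% of all tested genes rose and 11% fell, 23.7% being called in either direction. With NSC 2 rose and 2 fell, where 18.2% of all genes rose and 16.5% fell (34.7% in either direction). Of the 2 falls, that of *Mdk* was in a gene that passed the filter only through livers of the other groups. The median log2 fold change of the 8 genes was 1.48 with vehicle and 0.59 with NSC, beside 0.01 over all tested genes in each comparison. Groups that did not overlap were seen for 4 of 8 genes with vehicle, where 46.3% of all genes were so separated, and for 4 of 8 with NSC, where the share was 47.1%. Those counts stand near the share over all genes. With a log2 fold change over 1.5 in size required as well, 3 of the 8 were called with vehicle (7.22% of all genes), 3 with NSC (8.13%) and 0 between NSC and vehicle (0.02%). Between NSC and vehicle 0 of the 8 were called by edgeR, 0 had an unadjusted p under 0.05 where 19.5% of all genes did, and DESeq2 called 0 of the 5 for which it gave an adjusted p (none was given for *H19*, *Igf2* and *Mdk*), with 1 of the 8 at an unadjusted p under 0.05. In that comparison 0.0399% of all genes were called, a count of 6 that became 994 without NSC replicate 1 and 111 without vehicle replicate 3, with 0 of the 8 called in either case. *Mdk* was the 1 gene of 8 without overlap where 22.5% of all genes were.

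Markers of other cells also differed from baseline, but not all in the same direction. With vehicle the mesothelial, stellate and cholangiocyte sums lay above baseline, and the endothelial and erythroid sums lay below it. The 6 mesothelial markers summed to 2.11 to 4.95 CPM at baseline and 25.7 to 29.0 with vehicle, and to 23.9, 14.1 and 1.68 in NSC replicates 1 to 3. Of this list 4 rose with vehicle (*Krt19*, also a cholangiocyte marker, *Upk1b*, *Wt1* and *Lrrn4*) and 2 with NSC (*Upk1b* and *Krt19*). The 10 stellate cell and fibroblast markers, collagens included, summed to 232 to 267 CPM at baseline, 458 to 621 with vehicle and 542, 288 and 312 with NSC, with 7 genes called as risen with vehicle and 3 with NSC. The lower NSC sums, in replicates 2 and 3, fell in the same livers as the lower *Igf2* and *Gpc3* levels, and NSC replicate 1 was the highest NSC liver for both of these genes, for *H19* and for *Igf2bp2*. For *Afp* the order differed, with NSC replicate 3, whose mesothelial sum was the lowest of all 9 livers, as the highest NSC liver. In the other groups the stellate order differed from that of *Igf2* and *Gpc3*. Vehicle stellate sums were 621, 599 and 458 in replicates 1 to 3, with *Igf2* at 0.701, 2.82 and 0.923 CPM. *Gpc3* was 2.00, 1.37 and 1.59 CPM there. Baseline replicate 3 had the lowest stellate sum (232), the highest mesothelial sum (4.95) and the highest *Igf2* (0.561) and *Gpc3* (1.09) of its group. NSC replicate 1 also had the highest endothelial (239) and macrophage (447) sums. Cholangiocyte markers (6 genes) summed to 37.8 to 40.7 CPM at baseline, 76.0 to 115 with vehicle and 79.1 to 122 with NSC, and of the 5 tested 4 rose with vehicle and 3 with NSC. Most of each sum was *Spp1*, with means of 33.2 CPM at baseline, 73.2 with vehicle and 84.3 with NSC. *Epcam* went the other way with vehicle and was not called, at 0.648 to 0.923 CPM against 0.924 to 1.23 at baseline. Proliferation markers (8 genes) summed to 27.0 to 28.9 CPM at baseline, 359 to 439 with vehicle and 250 to 943 with NSC, lowest in NSC replicate 1, and all 8 rose in both groups. Every gene of the mesothelial, stellate, cholangiocyte and proliferation lists had at least 1 read in every library. The part of these markers in the changes above was not tested. Endothelial sums were 191 to 202 CPM at baseline, 119 to 190 with vehicle and 136 to 239 with NSC. Kupffer cell and macrophage sums were 144 to 208, 141 to 258 and 278 to 447, and erythroid sums 228 to 328, 106 to 186 and 129 to 230, in the same order of groups. Much of the erythroid sum was *Alas2*, at 123 to 166 CPM at baseline, 31.4 to 52.3 with vehicle and 23.8 to 77.3 with NSC. *Alas2* and *Klf1* lay below baseline in both groups, whereas the globin genes *Hba-a1*, *Hba-a2*, *Hbb-bs* and *Hbb-bt* overlapped it. The erythroid sum therefore does not stand for its globin members. By count of calls, 2 of 7 endothelial genes fell with vehicle and 1 with NSC. Of 6 macrophage genes 2 rose with vehicle and 4 with NSC, and 2 of 6 erythroid genes fell in each group. Of 12 hepatocyte genes 5 fell with vehicle and 6 with NSC. Over all tested genes 23.7% were called with vehicle and 34.7% with NSC, in either direction. *Gata1*, a defining gene of erythroid cells, did not pass the filter.

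**Figure D4:**
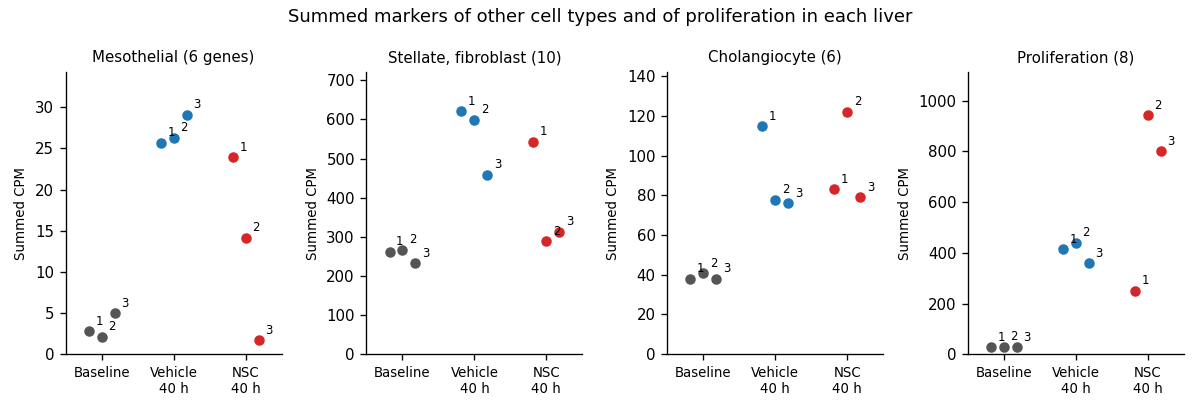
Summed level, in TMM-normalized CPM on linear axes from 0, of markers of mesothelial cells, of stellate cells and fibroblasts, of cholangiocytes and of proliferation in each liver, with points numbered by replicate. NSC replicate 3 stands at 1.68 CPM for mesothelial markers, below all 3 baseline livers, and NSC replicate 1 is the lowest 40-hour liver for proliferation markers at 250 CPM.

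Other regulators of *Afp* transcription were followed as a list of 19 genes, all tested. With vehicle 3 rose and 3 fell, and with NSC 3 rose and 5 fell. Counts of this and the following lists stand beside 23.7% of all tested genes called with vehicle and 34.7% with NSC. *Cebpa*, a factor of mature hepatocytes that activates *Alb*, fell by 1.55 on the log2 scale (SE 0.22, adjusted p = 0.000687) with vehicle and by 1.32 (SE 0.22, adjusted p = 0.00105) with NSC. *Nfya*, a subunit of the factor that binds CCAAT boxes, rose by 0.78 and 0.87 (adjusted p = 0.0109 and 0.00416). *Zhx3*, a relative of *Zhx2*, fell by 0.42 with vehicle and by 0.58 with NSC (adjusted p = 0.0460 and 0.00732), and *Zfhx3*, the AT motif-binding repressor of *Afp*, fell by 0.59 and by 0.55 (adjusted p = 0.0434 and 0.0424). *Foxa3* (1.02) and *Trp53* (0.61) were called with vehicle, and *Foxa1* (1.05), *Nfyb* (0.60) and *Cebpb* (-1.04) with NSC. *Hnf4a*, a regulator of hepatocyte identity, was not called (0.06, SE 0.19, with vehicle and -0.21, SE 0.19, with NSC). The median of the list was -0.08 with vehicle and -0.07 with NSC.

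Among 7 other liver genes known to depend on *Zhx2*, 6 were tested. With vehicle 0 rose and 4 fell, and with NSC 1 rose and 3 fell, at medians of -1.67 and -1.11. The list was not split by the direction of that dependence, so its medians do not measure the action of *Zhx2*. The male-specific hydroxylase genes *Cyp4a12a* and *Cyp4a12b* fell by 1.86 and by 1.47 with vehicle (adjusted p = 0.000429 and 0.000583), and by 1.32 and by 0.90 with NSC (adjusted p = 0.00181 and 0.00511). *Cyp2a4*, a steroid hydroxylase gene, fell by 2.07 with vehicle (adjusted p = 0.0384) and by 2.30 with NSC (adjusted p = 0.0208). *Mup20*, a major urinary protein gene, fell by 1.31 with vehicle (adjusted p = 0.0136). *Lpl*, which encodes lipoprotein lipase, rose by 1.87 with NSC (adjusted p = 0.0140). Near-identical *Mup* and *Cyp* copies may share reads, so these values are uncertain.

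Among 13 other imprinted growth genes, 10 were tested. With vehicle 2 rose, *Grb10*, an adaptor that restrains insulin and IGF signaling (1.19, adjusted p = 0.00256), and *Ndn*, necdin (1.64, adjusted p = 0.0210). With NSC *Grb10* rose (0.80, adjusted p = 0.0140), and *Gnas* (-0.43) and the cell cycle inhibitor *Cdkn1c* (-1.11) fell (adjusted p = 0.0400 and 0.0486). Of 12 genes for IGF-pathway receptors, binding proteins and the ligand IGF1, 0 rose and 2 fell in each group. These were *Igfals*, the acid-labile subunit (-0.92 with vehicle and -1.33 with NSC, adjusted p = 0.00311 and 0.000279), and *Igfbp3* (-1.44 and -1.26, adjusted p = 0.000897 and 0.00120). Both proteins carry IGFs in plasma. *Igf2r*, the clearance receptor of IGF2, had values of 0.12 (SE 0.15) and -0.26 (SE 0.15), and *Igf1* of -0.12 (SE 0.19) and 0.15 (SE 0.19), none of them called.

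The LIN28 and let-7 list, which governs *Igf2bp* genes and other fetal transcripts, was followed as 10 genes. Of these 5 passed the filter, and *Igf2bp1*, *Lin28a*, *Lin28b*, *Hmga2* and *Trim71* did not. The 1 call in each group was *Myc*, which fell by 1.09 with vehicle (adjusted p = 0.0269) and by 1.35 with NSC (adjusted p = 0.00726). Of 5 other glypicans 4 were tested, and *Gpc1* rose by 0.88 (adjusted p = 0.0274) and 0.83 (adjusted p = 0.0267). Of 14 genes on the list of pleiotrophin itself and of receptors for it and for midkine, 11 were tested. With vehicle 2 rose and 0 fell, while 4 rose and 2 fell with NSC. *Nrp1*, neuropilin 1 (0.68 and 1.04), and *Itga6*, an integrin subunit (1.20 and 1.21), rose in both groups. With NSC the integrin subunit gene *Itgb1* (0.64) and the syndecan gene *Sdc3* (0.64) rose as well, and *Sdc4* (-0.85) and *Lrp1* (-0.89) fell. *Ptn*, which encodes pleiotrophin, the relative of midkine, did not pass the filter.

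Of 16 other genes high in fetal liver or hepatoblasts, 13 were tested. With vehicle 5 rose and 1 fell, with a median log2 fold change of 0.55, and with NSC 4 rose and 2 fell, with a median of 0.66. *Igdcc4*, a cell surface protein of the immunoglobulin superfamily, rose by 5.42 (SE 0.99, adjusted p = 0.00597) with vehicle and 4.78 (SE 0.98, adjusted p = 0.00682) with NSC, from a mean of 0.168 CPM to 7.39 and 4.71. *Tpm1*, tropomyosin 1, rose by 1.31 and 1.15 (adjusted p = 0.000287 and 0.000404), and the keratin gene *Krt18* by 1.26 and 0.89 (adjusted p = 0.00785 and 0.0277). *Pkm*, the pyruvate kinase gene of fetal liver and muscle (1.48, adjusted p = 0.00106), and *Sox9*, a factor of hepatoblasts and bile duct cells (1.30, adjusted p = 0.0124), were called with vehicle, and *Hk2*, hexokinase 2 (1.33, adjusted p = 0.0429), with NSC. *Scd2*, the stearoyl-CoA desaturase of fetal liver, fell by 1.16 with vehicle and by 1.41 with NSC (adjusted p = 0.00567 and 0.00137), and *Aldoa* (-0.42, adjusted p = 0.0455) fell with NSC. No gene of any of these lists was called between NSC and vehicle.

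For each tested gene the genes of most similar pattern were found over the 9 libraries by Pearson's r of log2 CPM. They are given as a description, since the libraries share their groups and the match was the best of all tested genes. *Fkbp11* was the most similar to *Afp* (r = 0.989), *Lgr5* to *Gpc3* (r = 0.974), *Pfkfb4* to *Igf2* (r = 0.944) and *Ltv1* to *Igf2bp2* (r = 0.980). For *H19* it was *Gm19587* (r = 0.900), for *Mdk* *Vcp-rs* (r = 0.986), for *Zhx2* *Vps11* (r = 0.963) and for *Zbtb20* *Gm11427* (r = 0.946). Among the next 2 were *Nob1* and *Ifi27l2b* for *Afp*, *Traf3* and *Swsap1* for *Gpc3*, *Tnfaip2* for *Igf2*, *Palm2Akap2* and *Akap2* for *Igf2bp2*, *Cercam* and *Galnt10* for *H19*, *Prpf6* and *Wipi2* for *Zhx2*, *Sde2* for *Zbtb20*, and *Cluh* and ENSMUSG00000000486 for *Mdk*. None of the 9 genes was among the 3 genes most similar to another.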

How the data were processed

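RNA-Seq was performed on 9 liver samples, resected pieces or remnants, 3 per group, from poly(A)-selected stranded libraries. The authors aligned reads with STAR 2.6.1 within MAP-RSeq, counted them with featureCounts of Subread 1.5.1 and deposited raw read counts per gene. They also deposited FPKM values, which are these counts per gene length and library total. The sources name build hg38, but gene identifiers and coordinates are mouse (GRCm38). Every column of sample values was mapped to its sample.

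Tests of the counts used edgeR 4.0.16 under R 4.3.3 (TMM, filterByExpr, robust quasi-likelihood fit of all 9 libraries on group) and limma 3.58.1. DESeq2 1.42.0 was an alternative. The standard error is the absolute log2 fold change over the square root of F. Log2 CPM used a prior count of 2. Motifs and plots used Python 3.11.15, pandas 2.3.3, numpy 2.4.6 and matplotlib 3.10.9. The fit was tested on simulated data. Libraries are separate samples by their labels, and p-values treat them as independent livers. Resected pieces and vehicle remnants may come from the same mice, which the labels do not settle. The 9 genes and the lists were chosen with earlier results of these data known. Genes named were the 9, *Alb*, *Mki67*, up to 3 called genes per list, direction and comparison with the smallest adjusted p, and the 3 most similar genes. *Igf2r*, *Igf1*, *Hnf4a*, *Afm*, *Gc* and genes at filter level were named beyond this rule, after their values were seen, as known parts of their lists. A few genes that the rule names are not reported here. The labels place the first dose 12 h before surgery.

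Alternatives were other scaling or filters, only the 2 groups compared, a replicate block, leaving out each library and, added after the data were seen, a correction for GC content by a loess curve per library, available for 99.2% of tested genes. Intervals of counts cover counting error only.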

Additional observations from a re-analysis of the deposited data

How the results depend on the processing

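Of the 4 genes called with vehicle against baseline, 2 to 4 stayed called when each library was left out in turn; 2 remained without baseline replicate 1 or 2 or vehicle replicate 2 (*Afp* and *Igf2bp2* each time) and without vehicle replicate 1 (*Afp* and *Igf2*). With NSC against baseline the count ran from 2 to 5, and 2 without baseline replicate 1 (*Afp* and *Igf2bp2*); between NSC and vehicle it stayed at 0. Requiring also an absolute log2 fold change over 1.5 left 3, 3 and 0. Signs turned only for values that were not called. *H19* with NSC became -0.027 with the replicate block and ran from -0.27 (without NSC replicate 1) to 0.52 over the libraries left out, also turning to -0.067 without baseline replicate 1. Between NSC and vehicle the left-out libraries gave -1.99 to 0.014 for *H19* (turned without vehicle replicate 1), -0.61 to 0.29 for *Igf2bp2* (turned without NSC replicate 2 or 3, at 0.052 and 0.29, and at 0.27 when vehicle replicate 1 was left out) and -0.072 to 0.46 for *Zbtb20* (turned without NSC replicate 2). *Igf2bp2* between NSC and vehicle was 0.084 on library size alone, and *Zbtb20* after GC correction was -0.027 with NSC and -0.040 between NSC and vehicle. The causes were not tested.

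Replicate numbers were not taken to pair livers, since the labels give no pairing. Of 9 correlations of same-numbered residuals 1 was over 0.1 (range -0.05 to 0.13). In 7 of these 9 pairs the library correlated best with its own number among the 3 libraries of the other group. These included replicates 1 to 3 of baseline with NSC and 1 and 2 of vehicle with NSC, which come from different mice. The cause was not tested. Only baseline and vehicle libraries could share a mouse, and their correlations were 0.081, 0.070 and -0.048 for replicates 1 to 3. These values cannot settle whether they do. With the replicate block 3, 4 and 0 of the genes were called in the comparisons of vehicle with baseline, NSC with baseline and NSC with vehicle, *Igf2* with vehicle being lost (2.02, adjusted p = 0.0708). Scaling by library size alone put the median log2 fold change of all genes at 0.15 with NSC and 0.14 between NSC and vehicle (0.01 and 0.02 with TMM), and raised the share of rises among NSC calls from 52.4% to 65.4%. Between NSC and vehicle 6 of all genes were called, against 756 by DESeq2, 221 without a filter, 11 with the replicate block, 4 with RLE factors, 1 on library size alone, 0 after GC correction, and 0 to 994 with 1 library left out (994 without NSC replicate 1 and 111 without vehicle replicate 3). With vehicle 3564 of all genes were called, against 2285, 2329 and 2367 without baseline replicate 3, baseline replicate 1 and vehicle replicate 1. *H19*, *Igf2* and *Mdk* rest on 4 to 109 reads per library, which limits their precision, and a minimum of 10 counts in every library removed all 3.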
